A study of Mus musculus with 12 samples.

Results

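RNA of whole blood was compared between mice bled 6 h and mice bled 1 h after their last dose of CPI-0209, an inhibitor of the histone methyltransferases EZH2 and EZH1 that is also called tulmimetostat. The comparison used the 3 libraries labelled CPI0209 6hr and the 3 labelled CPI0209 1hr, which are 6 of the 12 libraries in the series, and 13384 of the 55367 genes in the count table had enough counts to be tested. All mice were CB17-SCID mice carrying a xenograft of the human bladder cancer line HT1376, and those given CPI0209 received 35 mpk (mg per kg) by mouth once a day for 11 days. The other groups, which serve here as reference levels, were 3 vehicle libraries and 3 libraries from CPI0209 mice bled 24 h after the last dose. Both groups thus carry 11 days of treatment and differ in the time since the last dose. The labels give no clock time for any bleed and no collection time for the vehicle mice, so time since dosing and time of day cannot be told apart. They do not say whether the 3 libraries of a group came from separate mice, and p-values measure the spread between libraries.

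EZH2 and EZH1 are the alternative catalytic subunits of Polycomb repressive complex 2 (PRC2), which methylates histone H3 on lysine 27 and keeps its target genes silent. RNA of whole blood comes from nucleated leukocytes, from platelets, and from reticulocytes, the young red cells that still hold RNA. Scid mice do not complete antigen receptor rearrangement and lack mature T and B cells. Many leukocyte transcripts follow the daily rhythm of glucocorticoid hormones, which act through the glucocorticoid receptor, a transcription factor whose targets include Fkbp5, Per1, Klf9 and Tsc22d3.

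Library totals were 6739993 to 8781149 counts at 1 h and 8753317 to 9978215 at 6 h. The TMM scaling factors, which correct for the make-up of a library, were 1.00 to 1.09 at 1 h and 0.766 to 0.812 at 6 h, so they did not overlap. Markers of the labelled tissue were present in all 12 libraries: the haem synthesis gene Alas2 ran from 16870 to 57194 library-scaled counts (CPM, as edgeR computes it on TMM-scaled library sizes), the neutrophil receptor Csf3r from 1451 to 2860, and the platelet factor Pf4 from 169 to 417. The T cell marker Cd3e had 0 to 6 counts. In bulk RNA, a change in the number of cells of a type and a change in RNA per cell cannot be told apart.

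At 6 h 66 genes differed from 1 h, 18 of them higher and 48 lower, in edgeR's quasi-likelihood test on all 12 libraries with Benjamini-Hochberg adjustment at 0.05. That is 0.493% of the genes tested, 0.134% higher and 0.359% lower. The 3 CPM values at 6 h lay all above or all below those at 1 h for each of the 66, where 18.1% of all genes tested lay above and 13.8% below. The largest falls among named genes were in Tas2r143, Clec10a, Per1, Tas2r135, Il6st and Fkbp5, and the largest rises in Ceacam10, Mpst, Rph3al, Aff3, Asns and Isg15. Protein coding genes made up all 18 that rose and 31 of the 48 that fell.

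**Figure D1:**
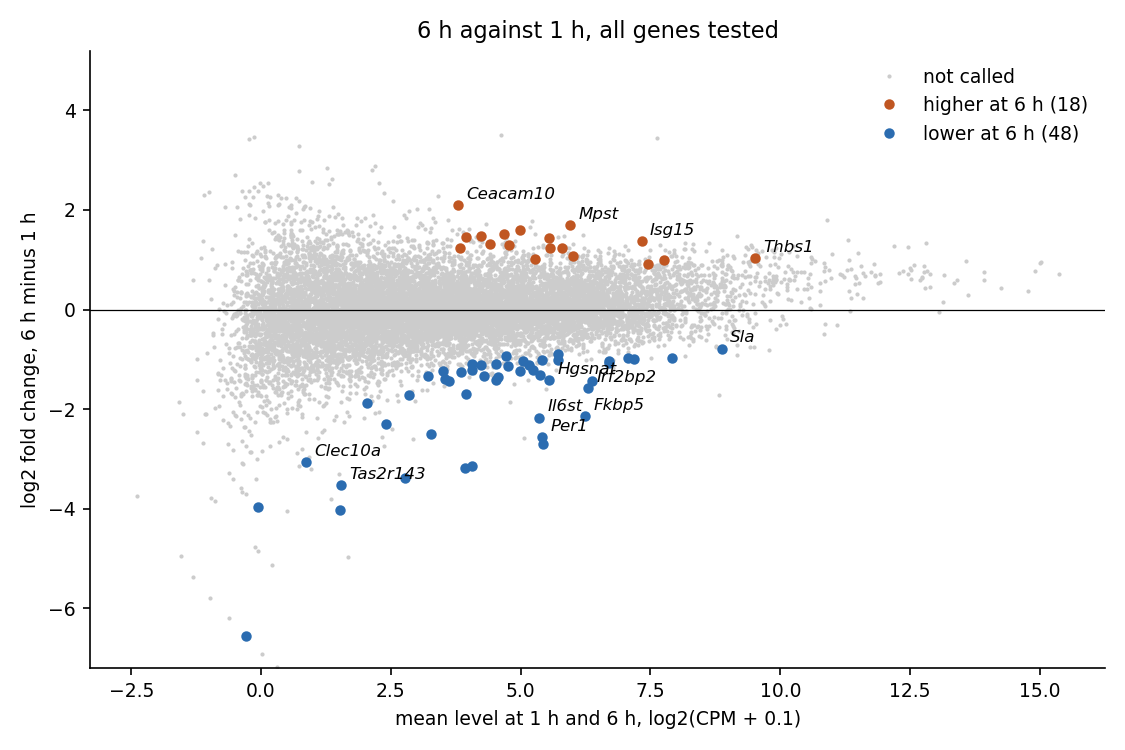
Log2 fold change at 6 h minus 1 h (vertical axis) against the mean level over the 6 libraries of both groups, as log2(CPM + 0.1) (horizontal axis), for the 13384 genes tested, of which 4 lie outside the plotted range. Orange points mark the 18 genes higher at 6 h and blue points the 48 lower; the calls reach from low to high levels, and the most abundant genes lie mostly above 0.

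How many genes passed depended on which libraries set the spread and on the scaling. With library totals alone in place of TMM, 17 genes were higher and 657 lower. With only the 1 h and 6 h libraries in the model, 1720 of 12466 genes passed (13.8%), 1088 higher (8.73%) and 632 lower (5.07%), and all 66 genes were among them. The 6-library model was fitted beside the 12-library model throughout. The biological coefficient of variation was 21.2% among the 1 h libraries, 24.8% at 6 h, 24.4% in vehicle and 35.4% at 24 h. Leaving the 24 h group out gave 1708 calls, and leaving out 24 h replicate 1 or 3 alone gave 1006 or 1285. Leaving out 24 h replicate 2 gave 33, vehicle replicate 1, 37, and vehicle replicate 2, 31. Without 1 of the 6 libraries compared, the 12-library edgeR model called 4 to 19 genes: 8, 11 and 4 without 1 h replicate 1, 2 and 3, and 4, 19 and 10 without 6 h replicate 1, 2 and 3. None of these were higher without any 1 h replicate or without 6 h replicate 1, where 1896 to 2446 genes had an unadjusted p below 0.05, and 7 and 1 were higher without 6 h replicate 2 and 3. In the 6-library model each of the 66 genes kept its call when any 1 of the 6 libraries was left out.

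The genes of the glucocorticoid response formed the group with the lowest median. Of 23 tested members of a list of glucocorticoid receptor targets, 5 fell in the 12-library model (Fkbp5, Per1, Klf9, Tsc22d3 and Ddit4), against 9 by DESeq2 and 6 by limma-voom. Of all genes tested, 48 of 13384 were lower in the 12-library model, 353 of 9225 by DESeq2 and 39 of 13384 by limma-voom. In the 6-library model 10 of 22 tested members fell and 1 rose, where 5.07% of all genes fell and 8.73% rose. The list median was -0.73 on the log2 scale against 0.00 for all genes tested, and 20 of 23 members were negative. The summed level of the list did not fall, at 5607, 6206 and 6752 CPM at 1 h and 7539, 6482 and 6985 CPM at 6 h. In 12 members all CPM at 6 h lay below those at 1 h, and in 3 all lay above. Of all genes tested 13.8% lay below and 18.1% above. This list and the others below were chosen with results of these data known, and their counts are a description.

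Fkbp5 (ENSMUSG00000024222, chromosome 17, 28399094 to 28517527 of GRCm38) encodes a co-chaperone that binds the glucocorticoid receptor and dampens its signalling. Its level was 127, 115 and 128 CPM at 1 h and 18.1, 28.7 and 36.4 CPM at 6 h. All 3 libraries at 1 h stood far above all 3 at 6 h, and the log2 fold change was -2.15 (SE 0.32, adjusted p = 0.0210). Vehicle, at 24.4 ± 12.8 CPM (SD, n = 3), and the 24 h group, at 32.4 ± 2.74 CPM, lay near the 6 h level.

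Per1 (ENSMUSG00000020893, chromosome 11, 69095217 to 69109960), a repressor of the circadian clock that glucocorticoids also induce, read 70.9, 61.5 and 86.8 CPM at 1 h. At 6 h it read 7.17, 5.82 and 23.9 CPM, and its log2 fold change was -2.57 (SE 0.52, adjusted p = 0.0498). The groups did not overlap, and 6 h replicate 3 was the highest of its group. Vehicle stood at 16.0 ± 2.69 CPM and the 24 h group at 15.6 ± 11.4 CPM.

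Klf9 (ENSMUSG00000033863, chromosome 19, 23141226 to 23168134), a Krüppel-like transcription factor, read 53.2, 49.4 and 66.9 CPM at 1 h and 26.6, 29.0 and 28.3 CPM at 6 h. The libraries at 6 h lay within 3 CPM of each other, all below those at 1 h, with a log2 fold change of -1.02 (SE 0.18, adjusted p = 0.0341). Tsc22d3 (ENSMUSG00000031431, chromosome X, 140539528 to 140600659), which encodes the leucine zipper protein GILZ, went from 326, 281 and 358 CPM to 153, 156 and 180.2 CPM, a log2 fold change of -0.98 (SE 0.19, adjusted p = 0.0479). Ddit4 (ENSMUSG00000020108, chromosome 10, 59949669 to 59951834), an inhibitor of mTORC1 signalling that stress and glucocorticoids induce, went from 21.5, 16.1 and 22.6 CPM to 9.41, 8.91 and 7.07 CPM, a log2 fold change of -1.25 (SE 0.25, adjusted p = 0.0492). In these 3 genes the libraries at 1 h were again all above those at 6 h, and vehicle lay nearer the 6 h mean, at 22.6 ± 3.35, 219 ± 58.2 and 9.02 ± 2.78 CPM. Of the 12 fits that left out 1 library from the 12-library model, Fkbp5 lost its call in 4, Klf9 in 6, Per1 and Tsc22d3 in 8 each and Ddit4 in 9. Fkbp5 missed the threshold without 1 h replicate 1 (adjusted p = 0.0537), 1 h replicate 3 (0.0653), 6 h replicate 1 (0.132) and 6 h replicate 2 (0.0541). Klf9, Tsc22d3 and Ddit4 missed it without any 1 of the 6 libraries compared, with an adjusted p of at most 0.164, 0.202 and 0.187, and Per1 without any of these but 6 h replicate 3, with one of at most 0.202. The other losses were without vehicle replicate 1 or 2 or 24 h replicate 2, and for Per1 also vehicle replicate 3.

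Members that passed in the 6-library model and not in the 12-library model included Nfkbia, the inhibitor of NF-kB, Klf13 and Dusp1, a phosphatase of MAP kinases. Their log2 fold changes were -1.21, -0.93 and -1.17, with adjusted p of 0.0536, 0.0744 and 0.0806 in the 12-library model and 0.00584, 0.00112 and 0.0168 in the 6-library model. Dusp1 read 116, 100.5 and 237 CPM at 1 h and 64.4, 55.6 and 82.4 CPM at 6 h, with 1 h replicate 3 far above the other 5 libraries. Txnip, which binds thioredoxin and limits glucose uptake, was among the more abundant members, at 592, 489 and 651 CPM at 1 h and 386, 413 and 412 CPM at 6 h (log2 fold change -0.52, adjusted p = 0.0124 in the 6-library model).

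**Figure D2:**
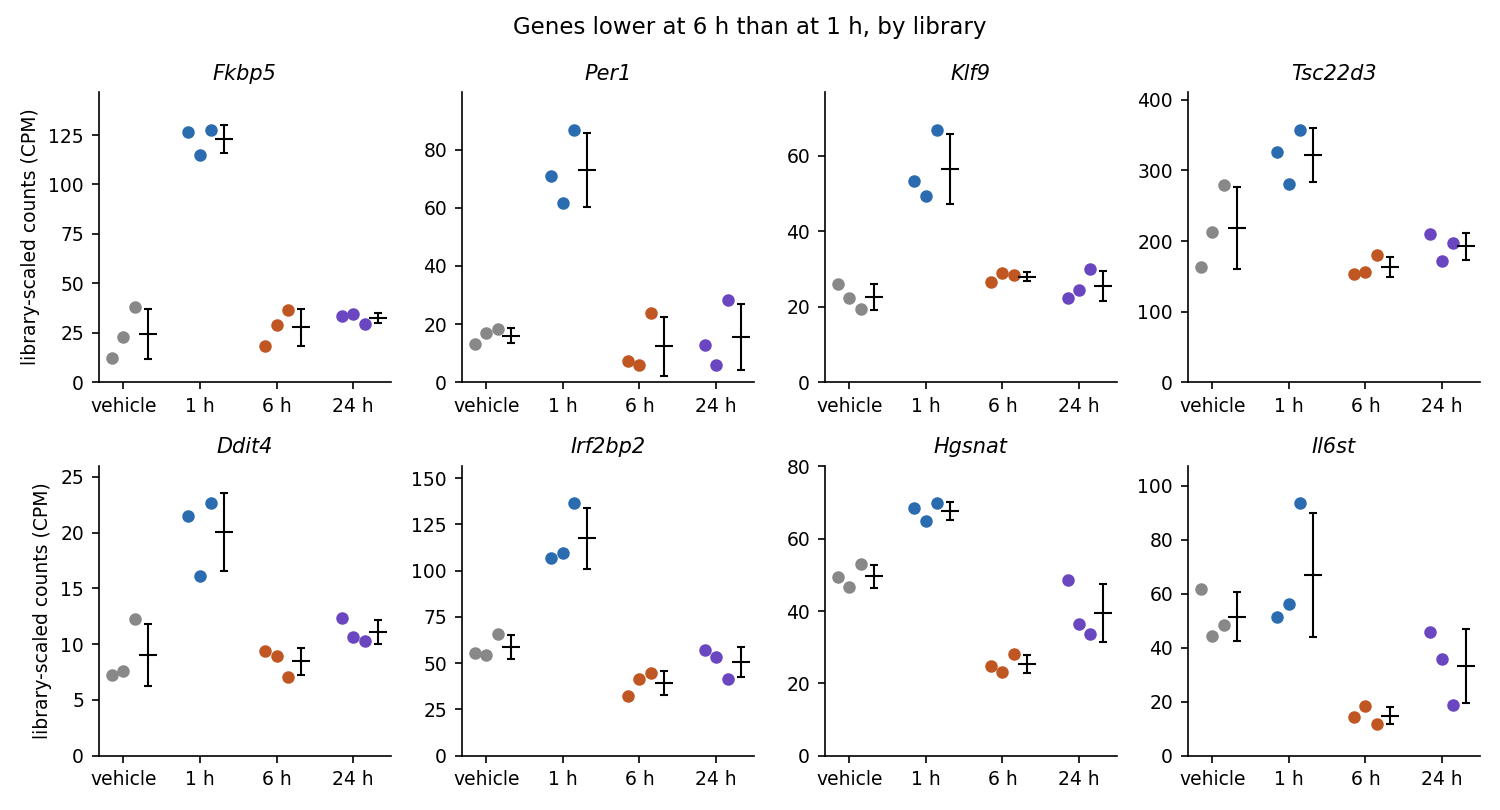
CPM in each library (points; 3 per group) with mean ± SD (bars) for 8 genes that fell from 1 h to 6 h, in vehicle and at 1, 6 and 24 h after the last CPI0209 dose; each vertical axis starts at 0. In Fkbp5, Per1, Klf9 and Ddit4 all 3 libraries at 1 h lie above the other 9, whereas vehicle lies between 1 h and 6 h in Irf2bp2 and Hgsnat.

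The promoters of Fkbp5 and Per1 are shown because both genes were called lower and each has a CACGTG, the E-box that CLOCK and BMAL1 bind, in its upstream window. The sequences are the 250 bases before the gene start in RefSeq on GRCm38.p6, read on the gene's strand, with capitals for the CACGTG: Fkbp5 is on the minus strand at chr17:28486150-28486399 and Per1 on the plus strand at chr11:69098699-69098948. Both windows lie inside the wider GENCODE spans given above, because those spans start farther upstream. Per1 has another RefSeq window, at chr11:69099902-69100151, with no CACGTG. Neither printed window holds more than 1 base of an annotated exon of its gene.
Fkbp5: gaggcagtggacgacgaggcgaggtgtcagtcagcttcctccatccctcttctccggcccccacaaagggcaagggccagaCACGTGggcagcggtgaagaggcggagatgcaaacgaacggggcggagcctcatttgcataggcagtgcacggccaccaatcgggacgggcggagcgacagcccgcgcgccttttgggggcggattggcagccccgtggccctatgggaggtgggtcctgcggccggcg
Per1: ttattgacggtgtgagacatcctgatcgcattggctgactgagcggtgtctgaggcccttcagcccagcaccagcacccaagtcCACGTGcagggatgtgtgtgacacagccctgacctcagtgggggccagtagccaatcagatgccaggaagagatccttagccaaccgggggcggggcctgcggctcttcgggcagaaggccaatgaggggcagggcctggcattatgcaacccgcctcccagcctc
The same 250-base windows of other genes were searched on both strands for 5 motifs. The palindromic glucocorticoid response element (AGAACA, 3 free bases, and the reverse complement of AGAACA) and its looser core ACANNNTGT, which lies within it, had no match in the 8 windows of the 5 genes. For all windows of tested genes the shares were 0.00825% and 3.67%. The half-site AGAACA matched 1 of the 8 windows, in Tsc22d3, against 11.3% of the windows of tested genes. CACGTG matched 2 of 8, those printed, against 8.38%. It matched 5 of 34 windows (14.7%) of all genes called lower that were in the table and 6 of 19 (31.6%) of those called higher, the latter in 4 genes. A match is a run of letters in a window and not a measured binding site.

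At the Fkbp5 locus 3 noncoding transcripts fell as well. Gm49838, a sense intronic transcript (chromosome 17, 28424723 to 28426430), read 26.4, 25.9 and 37.6 CPM at 1 h and 3.14, 2.23 and 4.76 CPM at 6 h. Its log2 fold change was -3.15 (SE 0.37, adjusted p = 0.00319), and its call held in all 12 fits that left out 1 library. Gm49839 on the same strand and Gm22146 on the opposite strand changed by -3.18 and -3.38 (adjusted p = 0.0212 and 0.0151). Gm49839 lost its call in 5 of those 12 fits, and Gm22146 in 1 of them, without 1 h replicate 3, and in DESeq2. All 3 lie inside the Fkbp5 gene and share 0 exonic bases with it. No source used here gives the strand setting of the counting, and reads from unspliced Fkbp5 RNA could be counted in them.

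Beyond that group, the calls with the smallest adjusted p were in Irf2bp2, Hgsnat and Gm49838, and these 3 were the calls that held in each of the 12 fits leaving out 1 library. Irf2bp2 (ENSMUSG00000051495, chromosome 8, 126588296 to 126593986), a nuclear corepressor partner of IRF2, read 107, 109 and 136 CPM at 1 h and 32.1, 41.3 and 44.5 CPM at 6 h, a log2 fold change of -1.58 (SE 0.18, adjusted p = 0.00319). Hgsnat (ENSMUSG00000037260, chromosome 8, 25944453 to 25976753), a lysosomal enzyme that acetylates heparan sulfate, read 68.5, 64.8 and 69.8 CPM and 24.8, 23.3 and 28.0 CPM, a log2 fold change of -1.42 (SE 0.17, adjusted p = 0.00319). In both genes vehicle stood between the groups, at 58.6 ± 6.34 and 49.6 ± 3.20 CPM.

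Both signal chains of the leukaemia inhibitory factor receptor complex fell. Il6st (ENSMUSG00000021756, chromosome 13, 112464070 to 112510086), the gp130 chain shared by the interleukin 6 family, read 51.3, 56.1 and 93.5 CPM at 1 h and 14.5, 18.3 and 11.8 CPM at 6 h, a log2 fold change of -2.17 (SE 0.32, adjusted p = 0.0203). Its level at 1 h was close to that of vehicle, 51.5 ± 8.95 CPM, and 1 h replicate 3 was the highest. Lifr, its partner chain, named after its values were seen, went from 45.9, 53.04 and 77.5 CPM to 22.2, 28.1 and 20.7 CPM, a log2 fold change of -1.31 (SE 0.20, adjusted p = 0.0212).

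Several genes of myeloid cells and of immune signalling fell at the same comparison. Fcgr2b, the inhibitory Fc receptor, read 154, 136 and 130.4 CPM at 1 h and 62.6, 79.5 and 62.1 CPM at 6 h, a log2 fold change of -1.04 (SE 0.16, adjusted p = 0.0212). Cd93, a C-type lectin-like receptor of myeloid and endothelial cells, went from 116, 85.9 and 159 CPM to 37.8, 59.4 and 36.4 CPM, a log2 fold change of -1.43 (SE 0.29, adjusted p = 0.0492). Sla, an adaptor that dampens receptor signalling in leukocytes, was the most abundant named faller, at 583, 552 and 643 CPM and 331, 332 and 367 CPM (log2 fold change -0.79 (SE 0.16, adjusted p = 0.0498)). In each of the 3 the libraries at 1 h stood above all at 6 h, and Sla was the one whose 6 h mean still lay above vehicle (241 ± 32.2 CPM).

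Clec10a (ENSMUSG00000000318, chromosome 11, 70156197 to 70170834), a galactose-binding lectin of dendritic cells and macrophages, was low throughout, with 24, 24 and 30 counts at 1 h and 2, 4 and 2 counts at 6 h, so its fold change rests on very few reads. That corresponds to 3.27, 2.74 and 3.23 CPM and 0.299, 0.495 and 0.257 CPM. Its log2 fold change was -3.07 (SE 0.59, adjusted p = 0.0439). Clec10a was not called in DESeq2, in limma-voom or with the replicate block, and a filter of 5 CPM in 3 libraries left it untested. Of the 12 fits that left out 1 library, it lost its call in 8. Vehicle was at 4.00 ± 2.04 CPM, near the 1 h level.

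Metabolic and signalling genes among the fallers included Plin2, which coats lipid droplets, at 204, 179 and 201 CPM at 1 h and 84.4, 92.0 and 115 CPM at 6 h. Its log2 fold change was -1.0 (SE 0.20, adjusted p = 0.0498), and vehicle (191 ± 60.4 CPM) was at the 1 h level. Mlxip, a glucose-responsive transcription factor, went from 153, 122 and 146 CPM to 69.9, 68.3 and 60.8 CPM (log2 fold change -1.08 (SE 0.20, adjusted p = 0.0359)), with vehicle at the 6 h level (71.6 ± 5.94 CPM). Olfml3, a secreted olfactomedin domain protein, went from 20.0, 21.2 and 29.4 CPM to 7.91, 5.57 and 8.36 CPM (log2 fold change -1.69 (SE 0.33, adjusted p = 0.0479)). Ceacam18 read 5.85, 7.19 and 5.92 CPM and 1.05, 1.49 and 2.57 CPM, a log2 fold change of -1.88 (SE 0.38, adjusted p = 0.0498). Named after their values were seen, the insulin signalling adaptor Irs2 changed by -0.90, the hepatocyte growth factor receptor Met by -1.11, the translation repressor Pdcd4 by -1.09, the phosphatase Ptpn22 by -1.11 and the transcription factor Klf11 by -1.36, all past the threshold.

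Of the 48 genes that fell, 4 stand in 1 stretch of chromosome 6 that holds taste and olfactory receptor genes. All 7 tested genes between 42358487 and 42476335 had negative log2 fold changes, as had 6683 of all 13384 genes tested. The stretch was bounded by 2010310C07Rik and Olfr457, which were called lower, so the shared sign was partly fixed by that choice. Tas2r143, a bitter taste receptor (ENSMUSG00000046652, chromosome 6, 42400238 to 42401119), read 5.85, 3.88 and 5.92 CPM at 1 h and 0.149, 0.743 and 0.386 CPM at 6 h, a log2 fold change of -3.53 (SE 0.62, adjusted p = 0.0306). Behind these levels are 43, 34 and 55 counts at 1 h and 1, 6 and 3 counts at 6 h, too few to fix the size of the fold change closely.

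Its neighbour Tas2r135, also a bitter taste receptor, read 11.2, 5.02 and 9.91 CPM at 1 h and 1.19, 2.10 and 1.93 CPM at 6 h (log2 fold change -2.30 (SE 0.46, adjusted p = 0.0498)). Olfr457, an olfactory receptor gene, read 18.4, 17.3 and 17.7 CPM and 4.78, 7.92 and 6.81 CPM (log2 fold change -1.44 (SE 0.26, adjusted p = 0.0306)). The antisense transcript 2010310C07Rik, which reaches into the span of Epha1, changed by -2.50 (adjusted p = 0.0306). The other 3 did not pass: Tas2r126 at -2.05 (adjusted p = 0.0707), Olfr458 at -1.76 (0.104) and Epha1 at -1.08 (0.132). The groups were apart in each of the 4 called genes, and vehicle and 24 h means lay nearer the 1 h level. Tas2r143 lost its call in DESeq2 and limma-voom, and Tas2r135 in limma-voom and with the replicate block. Near-identical receptor copies elsewhere in the genome could share reads with them.

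**Figure D3:**
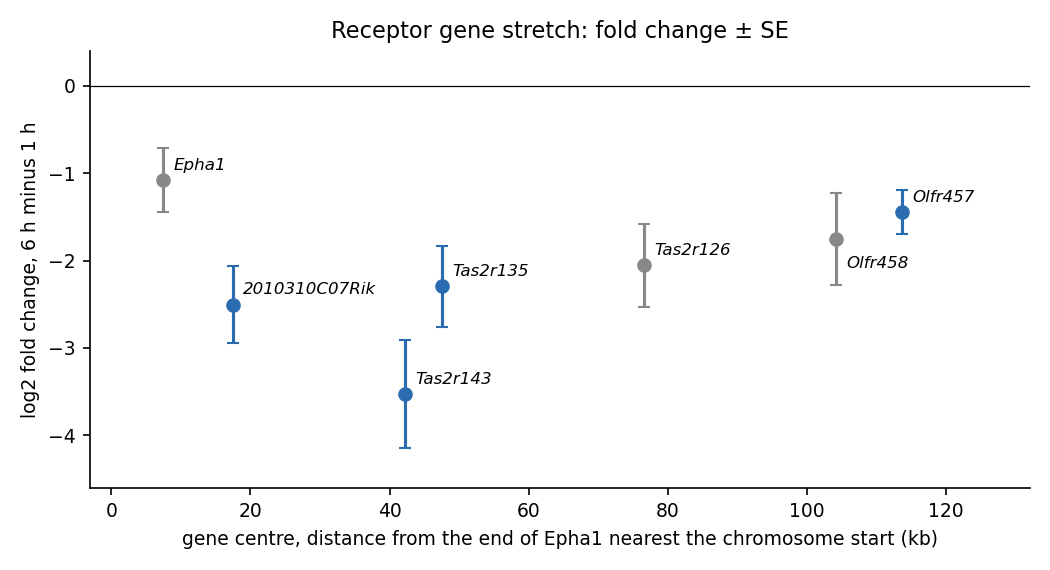
Log2 fold change at 6 h minus 1 h with its standard error (vertical axis) for the 7 tested genes of the chromosome 6 stretch, by the distance of the gene's centre in kb from the end of Epha1 nearest the chromosome start (horizontal axis). Blue marks the 4 genes called lower and grey the 3 not called; all 7 lie below 0, with Tas2r143 lowest at -3.53.

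Transcripts with predicted names were common among the fallers. They were 17 of the 48, and 2 of the 18 that rose, against 16.7% of the genes tested. By biotype, 10 of the 48 (20.8%) were TEC, a class of unspliced transcripts awaiting experimental checks, which made up 5.69% of the genes tested. Of the 17 called genes that were not protein coding, 14 lay inside another tested gene, and 4 of those inside a gene that was itself called. The same count was not made over all tested genes that are not protein coding.

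The 18 genes that rose included enzymes of sulfur, amino acid and haem metabolism and interferon-induced genes. In the 12-library model each of the 18 lost its call without any 1 h replicate and without 6 h replicate 1. Of the 12 fits that left out 1 library, Mpst and Ifi27 lost their calls in 5, Asns in 8, and Alad, Isg15 and Thbs1 in 9. Mpst (ENSMUSG00000071711, chromosome 15, 78406416 to 78414013), which transfers sulfur from mercaptopyruvate, read 30.2, 32.2 and 25.2 CPM at 1 h and 91.5, 79.5 and 113 CPM at 6 h, a log2 fold change of 1.70 (SE 0.27, adjusted p = 0.0212). Asns (ENSMUSG00000029752, chromosome 6, 7675169 to 7693254), asparagine synthetase and a target of the stress factor ATF4, read 23.0, 27.5 and 25.2 CPM and 64.2, 59.9 and 80.1 CPM, a log2 fold change of 1.43 (SE 0.26, adjusted p = 0.0347). Alad (ENSMUSG00000028393, chromosome 4, 62509169 to 62519918), the enzyme that makes porphobilinogen in haem synthesis, read 34.3, 35.5 and 29.6 CPM and 75.9, 64.8 and 93.8 CPM, a log2 fold change of 1.24 (SE 0.23, adjusted p = 0.0364). In all 3 the libraries at 6 h stood above all at 1 h, and vehicle was lowest, at 13.6 ± 1.87, 10.7 ± 3.55 and 26.3 ± 3.63 CPM.

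Rph3al (ENSMUSG00000020847, chromosome 11, 75830999 to 75938429), a Rab effector of regulated secretion, went from 13.6, 17.9 and 15.5 CPM to 30.8, 51.5 and 59.5 CPM, a log2 fold change of 1.59 (SE 0.30, adjusted p = 0.0359). Rab3d, a Rab GTPase of secretory granules, went from 13.9, 16.9 and 16.4 CPM to 50.02, 26.9 and 39.7 CPM, a log2 fold change of 1.30 (SE 0.24, adjusted p = 0.0355). For Rph3al both groups stood above vehicle (4.48 ± 0.984 CPM), whereas for Rab3d vehicle (27.1 ± 2.46 CPM) lay between them. Ceacam10 had the largest rise, from 3.40, 7.07 and 5.17 CPM to 22.0, 14.97 and 30.2 CPM, with a log2 fold change of 2.09 (SE 0.41, adjusted p = 0.0492). Cbr1, a carbonyl reductase, rose by 1.24 (adjusted p = 0.0498), Aff3, a nuclear protein of the AF4 family, by 1.47 (0.0498), and Tmem158 by 1.32 (0.0498).

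The interferon-stimulated genes Isg15 and Ifi27 rose. Isg15 (ENSMUSG00000035692, chromosome 4, 156199424 to 156200818), a ubiquitin-like modifier, read 82.0, 103 and 83.5 CPM at 1 h and 217, 213 and 265 CPM at 6 h, a log2 fold change of 1.37 (SE 0.25, adjusted p = 0.0359). Ifi27 (ENSMUSG00000064215, chromosome 12, 103434211 to 103440239) read 28.9, 29.7 and 25.5 CPM and 61.5, 55.2 and 81.4 CPM, a log2 fold change of 1.24 (SE 0.21, adjusted p = 0.0257). Both groups of 3 were apart in each gene, and at 24 h the means were back at 80.0 ± 36.7 and 20.0 ± 5.15 CPM.

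The promoter of Isg15 is shown because its window was the 1 of 19 windows of genes called higher that held the interferon-response pattern. Those windows cover 14 of the 18 genes called higher, and Ifi27 had no window to search. It is on the minus strand at chr4:156200819-156201068 of GRCm38.p6 from RefSeq, as the 250 bases before the gene start, and capitals mark 3 overlapping matches, on the opposite strand, of TTTC and TTTC with 2 free bases between. That pattern was found in 2.85% of the windows of tested genes. It was also in 1 of 34 windows of genes called lower, that of Ifi207, whose log2 fold change was -1.21 (adjusted p = 0.0498).
Isg15: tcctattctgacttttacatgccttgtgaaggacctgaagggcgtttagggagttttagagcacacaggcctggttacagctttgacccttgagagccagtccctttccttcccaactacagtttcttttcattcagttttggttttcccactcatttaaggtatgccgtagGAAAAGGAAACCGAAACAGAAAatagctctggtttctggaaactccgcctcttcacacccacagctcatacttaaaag
Of 41 tested interferon-stimulated genes, 12 rose and 2 fell in the 6-library model, where 8.73% of all genes rose and 5.07% fell. Oas3, which makes the activator of RNase L, read 466, 441 and 509 CPM at 1 h and 798, 768 and 843 CPM at 6 h (log2 fold change 0.77, adjusted p = 0.0711 in the 12-library model and 0.00210 in the 6-library model). Ifit1, Igtp, Rsad2 and Irf7 had log2 fold changes of 0.97, 0.88, 0.74 and 0.64, with adjusted p of 0.00279, 0.00269, 0.00299 and 0.00630 in the 6-library model. The list median was 0.21 against 0.00 for all genes tested, and 27 of 41 members were positive. With library totals alone in place of TMM the median of all genes was -0.43.

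Abundant risers were Thbs1, Samd14, Rbm38 and Pdzk1ip1. Thbs1 (ENSMUSG00000040152, chromosome 2, 118111876 to 118127133), thrombospondin 1, an adhesive glycoprotein of platelet granules, read 455, 501 and 478 CPM at 1 h and 1071, 958 and 892 CPM at 6 h, a log2 fold change of 1.03 (SE 0.20, adjusted p = 0.0459). Samd14, which supports Kit signalling in erythroid precursors, read 142, 143 and 149.9 CPM and 294, 254 and 320.5 CPM, a log2 fold change of 1.00 (SE 0.17, adjusted p = 0.0257). Rbm38, an RNA-binding protein, read 113, 126 and 125 CPM and 215, 237 and 232 CPM, a log2 fold change of 0.91 (SE 0.19, adjusted p = 0.0498). Pdzk1ip1, a small membrane protein, rose by 1.08 (SE 0.17, adjusted p = 0.0212). In these 4 genes each library at 6 h was higher than each at 1 h, and vehicle lay below both groups, at 359 ± 47.9, 110.4 ± 15.5, 91.6 ± 9.14 and 23.9 ± 2.38 CPM. Under scaling by library totals alone the risers Samd14, Rbm38, Pdzk1ip1, Sppl2b, Rab3d, Cbr1 and Tmem158 no longer passed.

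**Figure D4:**
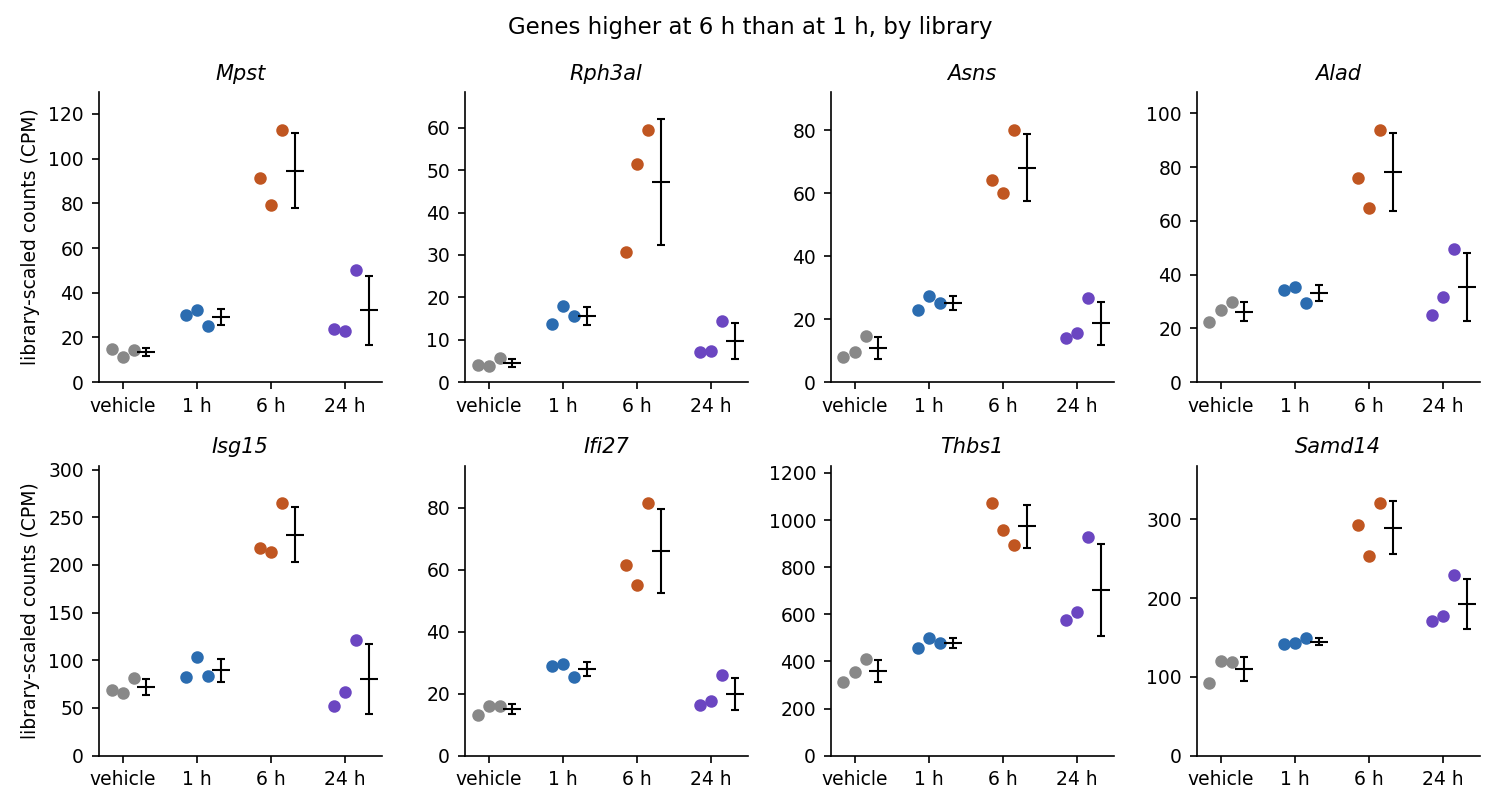
CPM in each library (points; 3 per group) with mean ± SD (bars) for 8 genes that rose from 1 h to 6 h, in vehicle and at 1, 6 and 24 h after the last CPI0209 dose; each vertical axis starts at 0. In all 8 the 6 h libraries lie above every 1 h and vehicle library, and in each the highest 24 h library is replicate 3.

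Gene lists for blood cell types and pathways were then described by their members. Over the 32 lists, 732 different genes were tested, of which the 12-library edgeR model called 11: Alad, Asns, Isg15, Ifi27 and Thbs1 higher, and Fkbp5, Per1, Klf9, Tsc22d3, Ddit4 and Clec10a lower. Limma-voom called 13 of them, DESeq2 144 and the 6-library model 253 (216 higher, 37 lower), and with library totals alone the 6-library model called 225 (100 higher, 125 lower), so the balance of the list counts depends on the scaling. In the 12-library model 290 had an unadjusted p below 0.05. The counts below of members that rose or fell are from the 6-library model under TMM, where 8.73% of all genes tested rose and 5.07% fell. Adjusted p-values of list members below are also from that model unless the 12-library model is named. Scaling by library totals alone shifted the median of all genes to -0.43, and list medians moved by about as much. The medians below are relative to 0.00 for all genes under TMM. Numbers of members below are those tested in the 12-library model. The 6-library model tested 17 granule protein genes, 9 of basophils, mast cells and eosinophils, and 18 of dendritic cells and MHC class II. It also tested 25 antioxidant genes, 28 of lipid synthesis and 20 cell cycle inhibitors and p53 targets.

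Genes of red cells were mostly higher at 6 h. Of 22 genes for the red cell membrane and its skeleton, 18 rose in the 6-library model, the median was 0.90, and 19 had all 3 CPM at 6 h above those at 1 h. Epb42, protein 4.2 of the skeleton, read 503, 505 and 471 CPM at 1 h and 1169, 966 and 1199 CPM at 6 h (log2 fold change 1.17, adjusted p = 0.114 in the 12-library model and 0.000783 in the 6-library model). Its groups did not overlap.

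Of 20 genes of reticulocyte maturation 17 rose in the 6-library model (median 0.78). Among them, Bnip3l, the mitophagy receptor that clears mitochondria, read 7794, 9909 and 7023 CPM at 1 h and 16216, 14261 and 18230.3 CPM at 6 h (log2 fold change 0.98, adjusted p = 0.00251). Of 15 erythroid transcription factors 8 rose (median 0.65), including Nfe2 at 0.90 and Gata1 at 0.87, with adjusted p of 0.0549 and 0.0679 in the 12-library model and 0.00144 and 0.00210 in the 6-library model. All 4 adult globin transcripts rose in the 6-library model (median 1.12). Hbb-bs read 481, 991 and 644 CPM at 1 h and 1648, 1863 and 1624 CPM at 6 h (log2 fold change 1.28, adjusted p = 0.00387), and the share of counts from adult globins was 0.178% to 0.285% at 1 h and 0.337% to 0.455% at 6 h. Summed adult globins, at 4329 to 5610 CPM at 6 h, stood far below Alas2 alone. Whether library preparation kept globin RNA to the same degree in each library was not tested. The near-identical alpha-globin genes Hba-a1 and Hba-a2 could share reads.

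For haem synthesis and iron, 13 of 24 genes rose and 1 fell in the 6-library model (median 0.60). Alas2, which starts haem synthesis in red cells, took 31037, 35281 and 29449.5 CPM at 1 h and 57194, 53646 and 45840.0 CPM at 6 h. Its log2 fold change was 0.71 (adjusted p = 0.00448 in the 6-library model). Urod and Blvrb had log2 fold changes of 1.06 and 1.21, with adjusted p of 0.00112 and 0.00112. The member that fell was Hmox1, haem oxygenase 1, at -0.62 (adjusted p = 0.0215).

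These red cell genes moved across the whole comparison. The summed level of the 22 membrane genes was 14999 to 16278 CPM at 1 h and 24781 to 27707 CPM at 6 h, against 8728 to 10055 in vehicle and 5827 to 17087 at 24 h. The 2 groups compared did not overlap. With the mean log2 CPM of the 3 erythroid lists as a covariate in the 12-library model, 1 gene was called, Gm49838. Because that covariate is itself apart between 1 h and 6 h, the level of red cell RNA and the time after dosing cannot be told apart in that fit.

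Ribosomal protein genes were higher in nearly the whole list: 79 of 80 tested members were positive, 49 rose in the 6-library model and the median was 0.65. Rplp0, of the ribosomal stalk, read 997, 1173 and 809 CPM at 1 h and 1971, 1871 and 2385 CPM at 6 h (log2 fold change 1.06, adjusted p = 0.0961 in the 12-library model and 0.00193 in the 6-library model). Its groups did not overlap, and 71 of the 80 members had all libraries at 6 h above those at 1 h. Processed pseudogenes of these genes are many and could share reads.

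Platelet and megakaryocyte genes were positive in 29 of 29 tested members, with a median of 0.55, and 14 rose in the 6-library model. Beside Thbs1, Rgs18, a regulator of G protein signalling in platelets, read 549, 708 and 587 CPM at 1 h and 1400.2, 1032 and 1407 CPM at 6 h (log2 fold change 1.06, adjusted p = 0.00189). The ADP receptor P2ry12 had 0.68 (adjusted p = 0.00860) and the podoplanin receptor Clec1b 0.88 (0.00862). Without 1 of the 6 libraries, 7 to 18 members rose. With library totals alone the median was 0.12 and 4 members rose in the 6-library model.

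**Figure D5:**
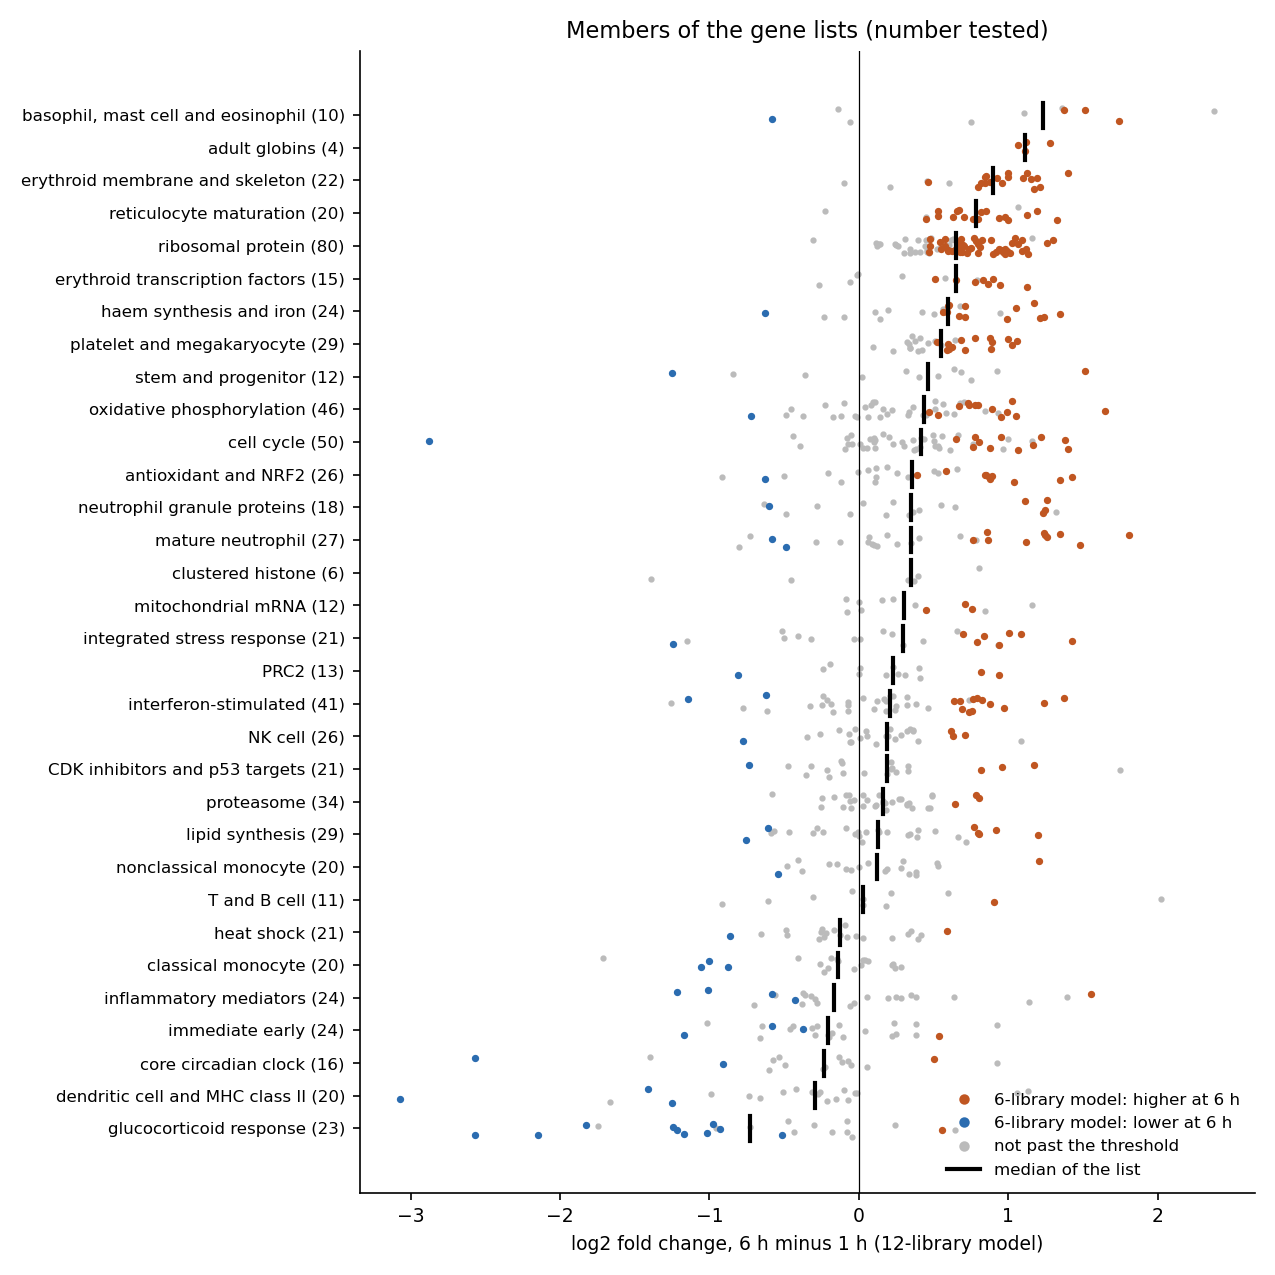
Log2 fold change at 6 h minus 1 h from the 12-library model (horizontal axis) for each tested member of the 32 gene lists (rows, with the number tested), sorted by the list median (black bar). Orange and blue points rose or fell in the 6-library model and grey points did not pass. The list of basophils, mast cells and eosinophils lies at the top, at a median of 1.23. Globin, red cell and ribosomal protein lists follow, and the glucocorticoid response lies lowest, at a median of -0.73.

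Neutrophil genes split. Of 27 mature neutrophil genes 10 rose and 2 fell in the 6-library model (median 0.35, and -0.07 with library totals alone). S100a8, a subunit of calprotectin, read 237, 377 and 288 CPM at 1 h and 739, 570.3 and 1214 CPM at 6 h, a log2 fold change of 1.48 (adjusted p = 0.0831 in the 12-library model and 0.00411 in the 6-library model). Retnlg, a resistin-like secreted protein, read 529, 1084 and 931 CPM and 2829, 1988 and 4095 CPM, a log2 fold change of 1.81 (adjusted p = 0.00284). In both, 6 h replicate 3 was highest.

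In contrast, the neutrophil growth factor receptor Csf3r went from 2200.2, 1996 and 2263 CPM to 1451, 1494 and 1672 CPM (log2 fold change -0.48, adjusted p = 0.00851 in the 6-library model), and the histamine-forming enzyme Hdc had -0.58 (0.00441). For granule proteins, 4 of 18 rose and 1 fell (median 0.35, and -0.08 with library totals alone). Lcn2, which sequesters iron from bacteria, had 1.25 and the collagenase Mmp8 1.26 (adjusted p = 0.00326 and 0.00515), while the integrin Itgam had -0.60 (0.0159).

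Among 20 genes of classical monocytes 3 fell in the 6-library model and the median was -0.14. They included Csf1r, the receptor for macrophage colony-stimulating factor, at 166, 139 and 149 CPM at 1 h and 74.4, 104 and 68.6 CPM at 6 h (log2 fold change -0.87, adjusted p = 0.00439), and the matrix proteoglycan Vcan at -1.0 (0.0168). For dendritic cells and MHC class II the median was -0.30 and 18 of 20 members were negative. There Clec10a, Ciita, the activator of MHC class II genes, at -1.41 (adjusted p = 0.0285), and the growth factor receptor Flt3 at -1.25 (0.0464) fell. Without 1 of the 6 libraries, 1 to 5 members of this list fell.

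NK cell genes had a median of 0.19, with 3 of 26 higher and 1 lower in the 6-library model, close to the 8.73% and 5.07% of all genes. The granzymes Gzma and Gzmb and the receptor Ncr1 had 0.63, 0.62 and 0.71 (adjusted p = 0.0170, 0.0163 and 0.0159), and the receptor Cd244a had -0.78 (0.00144). With library totals alone the NK median was -0.24. Of 20 nonclassical monocyte genes, the scavenger receptor Cd36 rose (1.20, adjusted p = 0.00112) and the integrin Itgal fell (-0.54, 0.0108). The 10 tested genes of basophils, mast cells and eosinophils had the highest median of the 32 lists, 1.23. Their summed level was not higher at 6 h, at 332, 310 and 322 CPM at 1 h and 316, 267 and 303 CPM at 6 h. Of them 1 fell in the 6-library model, and Kit, Ccr3 and Ms4a2 rose, at 1.52, 1.37 and 1.74 (adjusted p = 0.00726, 0.0187 and 0.0420), all at levels below 30 CPM. Their part in the changes of other genes was not tested.

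Cell cycle genes were positive in 42 of 50 members, and 11 rose and 1 fell in the 6-library model (median 0.41, and -0.03 with library totals alone). Ube2c, which marks mitotic cyclins for destruction, read 157, 194 and 159 CPM at 1 h and 391, 379.6 and 420.5 CPM at 6 h (log2 fold change 1.22, adjusted p = 0.0811 in the 12-library model and 0.000783 in the 6-library model). The spindle protein Nusap1 and the checkpoint kinase Bub1b had 1.07 and 1.38 (adjusted p = 0.00112 and 0.00140). The mitotic kinase Plk1 went the other way, from 2.45, 3.19 and 2.37 CPM to 0.149, 0.371 and 0.514 CPM, the latter from 1, 3 and 4 counts (log2 fold change -2.87, adjusted p = 0.00716).

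For oxidative phosphorylation 13 of 46 nuclear genes rose and 1 fell (median 0.44), and 3 of 12 mitochondrial mRNAs rose (median 0.30, and -0.13 with library totals alone). Uqcrh, a subunit of complex III, read 17.7, 20.5 and 14.0 CPM at 1 h and 55.1, 54.6 and 54.2 CPM at 6 h (log2 fold change 1.65, adjusted p = 0.00109 in the 6-library model), and mt-Co1, of complex IV, had 0.76 (0.00279). Of 26 antioxidant and NRF2 target genes 10 rose and 1 fell (median 0.36, and -0.07 with library totals alone). Gclm, of glutathione synthesis, and Gpx1 and Prdx2, which remove peroxides, had 1.04, 0.89 and 0.88 (adjusted p = 0.00112, 0.00151 and 0.00180).

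In the integrated stress response 7 of 21 genes rose and 1, Ddit4, fell in the 6-library model (median 0.30, and -0.13 with library totals alone). Beside Asns, the amino acid transporter chains Slc3a2 and Slc7a5 read 49.9 ± 6.17 and 78.2 ± 5.93 CPM at 1 h and 86.2 ± 0.936 and 139.9 ± 12.4 CPM at 6 h (SD, n = 3), with log2 fold changes of 0.79 and 0.84 (adjusted p = 0.00417 and 0.00248). The transcription factor Atf5 had 1.08 and the mitochondrial serine enzyme Shmt2 1.01 (adjusted p = 0.0109 and 0.0341).

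Clock, early-response and inflammatory genes had medians below 0. Of 16 clock genes 13 were negative (median -0.23), and Per1 and Nfil3, a repressor that opposes the D-box activators, fell in the 6-library model, Nfil3 from 39.9, 49.3 and 52.7 CPM to 20.2, 25.1 and 30.2 CPM (log2 fold change -0.91, adjusted p = 0.00690). Csnk1d, the kinase that marks PER proteins, rose by 0.50 (0.0187). Of 24 inflammatory mediators 14 were negative (median -0.17), and 4 fell and 1, the nitric oxide synthase Nos2, rose (1.55, adjusted p = 0.0147). Those that fell were Nfkbia, the apoptosis inhibitor Birc3 at -1.01, the chemokine Ccl9 at -0.58 and the cytokine signalling inhibitor Socs3 at -0.43 (adjusted p = 0.00925, 0.0187 and 0.0488). Of 24 immediate early genes 16 were negative (median -0.20), and 3 fell (Fosl2 at -0.58, Dusp1 and Klf6 at -0.37) and Jund rose (0.54).

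Smaller counts came from the remaining lists. In the 6-library model, 5 of 29 lipid synthesis genes rose and 2 fell, with the desaturase Scd1 at 0.92 and the citrate-cleaving enzyme Acly at -0.61 (adjusted p = 0.0130 and 0.0169). Of 34 proteasome genes 3 rose, about the 8.73% of all genes, among them Psmd4 at 0.80 (0.00642). Of 21 cell cycle inhibitors and p53 targets 3 rose and 1 fell, with Gadd45a at 0.82 (0.00186). Of 21 heat shock genes Dnajb4 rose (0.59, 0.0306) and Fkbp4, a co-chaperone of steroid receptors, fell (-0.86, 0.0436). None of the 4 lists had a median beyond 0.2 on the log2 scale.

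For the target complex itself, Ezh2 read 219, 225 and 194 CPM at 1 h and 438, 414 and 372 CPM at 6 h, against 279.9 ± 22.6 CPM in vehicle and 219 ± 156 CPM at 24 h. Every library at 6 h was above every one at 1 h, and the log2 fold change of 0.94 (SE 0.36, adjusted p = 0.165) did not pass in the 12-library model but did in the 6-library model (adjusted p = 0.00119). Ezh1, the alternative enzyme, had 0.27 (adjusted p = 0.474 in the 12-library model). The core partners Suz12 and Eed had 0.41 and 0.00 (adjusted p = 0.367 and 0.994 in the 12-library model). Ezh1, Suz12 and Eed did not pass the threshold. Jarid2, an accessory subunit, had 0.82 and the lysine 27 demethylase Kdm6b -0.81 (adjusted p = 0.110 and 0.133 in the 12-library model, 0.00419 and 0.00328 in the 6-library model).

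Set beside the reference groups, genes that rose and genes that fell took different positions. The vehicle mean lay nearer the 1 h mean for 16 of the 18 genes that rose, and nearer the 6 h mean for Rab3d and for 1 predicted gene. For the 48 that fell, vehicle lay nearer 1 h in 25 and nearer 6 h in 23, where 63.4% of all genes tested had vehicle nearer 1 h. The 24 h mean lay nearer 1 h for 15 of the 18 and for 30 of the 48, against 65.9% of all genes. In 17 of the 48, Fkbp5, Per1, Klf9, Tsc22d3 and Ddit4 among them, the means of both vehicle and 24 h lay nearer 6 h. In 3 of these, Irf2bp2, Pdcd4 and Rnf169, all libraries at 6 h also lay below all vehicle libraries. In 24 of the 48, Il6st, Clec10a, Plin2 and the 4 called genes of the receptor stretch among them, both lay nearer 1 h. These positions share libraries with the comparison that chose the genes and are given with no test.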

How the data were processed

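RNA-seq of whole blood gave 12 libraries in 4 groups of 3, all used. The authors deposited unscaled, whole-number counts for each of 55367 mouse Ensembl identifiers. RSEM is named, with no version, in the submitters' processing notes, and whether its estimates were rounded to these counts is unknown. The same notes give a human build, whereas the identifiers are mouse. No source used here names the aligner, annotation or strand setting. Per the labels' protocols, RNA came from a PAXgene kit and ribosomal RNA was depleted. GENCODE M21 (GRCm38) gave positions.

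Counts were analysed in R 4.3.3 with edgeR 4.0.16: filterByExpr by group (13384 genes), TMM, a quasi-likelihood fit of 4 group means, the contrast 6 h minus 1 h, and Benjamini-Hochberg adjustment over all genes tested at 0.05. Adjusted p and log2 fold changes are from this fit unless the 6-library model is named. SE is the absolute log2 fold change divided by the square root of F. The fit was tested on simulated data. The limma version was 3.58.1 and DESeq2 1.42.0.

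Named genes were those past the threshold with non-overlapping groups, a mean log2 CPM of at least 1 and no predicted name: the 12 largest rises and falls, the 6 most abundant each way, 4 PRC2 genes, and up to 4 members of each list by p. Others described were chosen after their values were seen. The members and the 32 lists were chosen with earlier results of these data known. An exact permutation test of 3 against 3 cannot go below 0.1. Some list members are not reported here by name.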

Additional observations from a re-analysis of the deposited data

Results flagged for a closer look

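In 10 named genes that fell, all 3 libraries at 1 h lay above all vehicle libraries. In the same genes all 3 libraries at 6 h lay below all vehicle libraries. The difference between the times is the comparison of the report, and no other test of it was made. Against vehicle in the 12-library model, no gene of the 10 passed the threshold at both times. Only Irf2bp2 passed at 1 h (adjusted p = 0.0389), and it missed at 6 h (0.0872). Only Hgsnat (0.00437), Tas2r143 (0.0214) and Olfr457 (0.0385) passed at 6 h, and these missed at 1 h (0.492, 0.846 and 0.782). The others passed at neither time, so the positions are a description. The share of all genes tested with such positions is not given here. Vehicle libraries are shared by both differences from vehicle.

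Irf2bp2 differed from vehicle by 1.00 at 1 h and -0.57 at 6 h on the log2 scale, and its 6 h minus 1 h value was -1.58. The values for Hgsnat were 0.45 and -0.97, which gave -1.42. For the receptor chain Lifr they were 0.78 and -0.53, with -1.31 between the times. Of the 3 called receptor genes of the chromosome 6 stretch, Tas2r143 and Olfr457 were in this set and Tas2r135 was not: Tas2r143 stood at 0.76 and -2.77 with -3.53 between the times, and Olfr457 at 0.44 and -1.003 with -1.44. Met stood at 0.56 and -0.55 (-1.11 between the times), Pdcd4 at 0.81 and -0.28 (-1.09), and the ubiquitin ligase gene Rnf169 at 0.61 and -0.40 (-1.01). Ceacam18 stood at 0.53 and -1.35 (-1.88) and Ifi207, of an interferon-inducible gene family whose copies could share reads, at 0.59 and -0.61 (-1.21).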

How the results depend on the processing

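The count of 66 genes (18 higher, 48 lower) was 674 (17 and 657) with library totals alone, 1227 (809 and 418) with no low-count filter, 851 (498 and 353) with DESeq2's Wald test, 1720 (1088 and 632) with only the 1 h and 6 h libraries, 1 (0 and 1) with the erythroid covariate, and with DESeq2 size factors 11 were higher, of 50 in all. Chosen after seeing the data, leaving out the 24 h group gave 1708 (1084 and 624), and the 6 libraries with library totals alone gave 3329 (383 and 2946). Leaving out 1 of the 12 libraries gave 4 to 1285 calls, with 0 to 912 higher and 4 to 423 lower; in the 6-library model, leaving out 1 h replicate 1, 2 and 3 gave 862 (590 and 272), 1469 (971 and 498) and 780 (560 and 220), and leaving out 6 h replicate 1, 2 and 3 gave 1024 (720 and 304), 1608 (1044 and 564) and 1304 (892 and 412). The causes were not tested. Limma-voom gave 66 calls (27 and 39), the filter of 5 CPM 89, and leaving out haemoglobin genes 66. With library totals alone, 2.52% of the calls were higher, against 27.3% under TMM. The replicate block gave 68 calls (25 and 43), 51 of them among the 66; correlations of same-numbered 1 h and 6 h libraries were 0.03, -0.08 and -0.02 over genes, and not every library correlated best with its own number. No called gene changed direction under the alternatives run. Depth limits low genes most: 3 of the 66 had a mean log2 CPM below 1.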
